A study of Homo sapiens with 8 samples.

Results

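H3K27ac peaks that covered 1 kb or more in both control libraries and had no peak after CEBPB knockdown formed a set of 585 regions, out of 60669 regions merged from 4 libraries of A549 cells. Overlapping peaks of the 4 lists (by at least 1 bp, on chromosomes 1 to 22 and X) were joined into 1 region. A region was kept in the set when its called peak length was 1000 bp or more in each control and when neither knockdown library had a peak in it. In all, 17133 regions had that much called length in both controls, so the 585 longer lost regions were 3.41% of those that could have been lost (Wilson 95% interval 3.15 to 3.70%, which covers counting error over regions only). The members were chosen by the presence and length of peak calls in these 4 libraries, so their called lengths, and their absence from the knockdown lists, are a description and support nothing by themselves.

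A549 is an established human lung adenocarcinoma line, and the series title describes it as NRF2-activated. The 2 control libraries came from cells given control siRNA, and the knockdown libraries from cells given CEBPB siRNA-1 (1 library) or CEBPB siRNA-2 (1 library), called siRNA-1 and siRNA-2 below. The medium was changed 24 h after transfection and chromatin was taken after a further 24 h. The 4 input libraries of the series were not analysed here. The labels do not say whether the controls were separate cultures, and the knockdown libraries differ in siRNA as well as in sample.

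H3K27ac, acetylation of lysine 27 of histone H3, is laid down by the coactivators p300 and CBP and marks active promoters and active enhancers. CEBPB encodes C/EBPβ, a basic leucine zipper factor that binds enhancers in epithelial, myeloid, fat and liver cells and recruits such coactivators. NRF2, encoded by NFE2L2, is a factor of the same broad class that drives genes of antioxidant defence and is active in A549 cells because its inhibitor KEAP1 is mutated there. A peak is a stretch where the peak caller found more reads than its background, and a region without a peak is not a region without acetylation.

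Peak lists were of similar size in the 4 libraries, with 45537 and 45651 peaks in the controls, 47370 with siRNA-1 and 48216 with siRNA-2. Called length was 67.9 Mb in control 1, 62.1 Mb in control 2, 70.4 Mb with siRNA-1 and 61.7 Mb with siRNA-2. Both knockdown lists thus held more peaks than either control list, and called length did not separate the groups. The longer lost regions held 1111 kb of called length in control 1 and 995 kb in control 2, which was 1.64% and 1.60% of those lists. Read counts were not part of these lists, so the depth of each library is unknown. How far the siRNAs lowered CEBPB cannot be read from these lists. Epithelial marker genes were not checked because the gene positions of build hg19, on which the peaks were placed, were not used here.

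Absence of a long control region was much rarer between the controls than between a control and a knockdown library. Of 19525 regions with 1000 bp or more called in control 1, 75 had no peak in control 2 (0.384%), and of 17878 such regions of control 2, 12 had none in control 1 (0.0671%). Set against the knockdown library of the same number, 1638 of the 19525 control 1 regions had no siRNA-1 peak (8.39%) and 1140 of the 17878 control 2 regions had no siRNA-2 peak (6.38%). The knockdown libraries disagreed more than the controls did: 891 of 19986 long siRNA-1 regions had no siRNA-2 peak (4.46%) and 430 of 18129 long siRNA-2 regions had no siRNA-1 peak (2.37%). Of the 17133 regions long in both controls, 524 lacked a peak with siRNA-1 only, 414 lacked one with siRNA-2 only and 585 lacked one with both. Among them 15610 were called in all 4 libraries, and these are called longer kept regions below.

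The strongest longer lost region lay on chromosome 8 (hg19, chr8:128046455-128051857), in what general knowledge of the map places in the wide enhancer-rich stretch on the centromeric side of MYC, a growth-promoting transcription factor gene. Strength here is the lower of the best −log10 q values in the controls, and at this region it was 162. Its called length was 5056 bp in control 1 and 5140 bp in control 2, with fold enrichments over the caller's background of 33.5 and 31.0. The closest siRNA-1 peak was 170 kb and the closest siRNA-2 peak 157 kb away, and 165 kb separated it from any region that all 4 libraries shared. The only other region within 50 kb was a peak of 392 bp in control 1 alone. This was the longest member by its lower called length, and the only one with 5000 bp or more in both controls.

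The next members by strength sat in more varied surroundings. On chromosome 1 (hg19, chr1:222693911-222697151) a region of 3037 bp in control 1 and 3241 bp in control 2 was enriched 33.8-fold and 32.8-fold. Called length of neighbours is given below for regions reaching within 50 kb, without longer lost regions and without longer gained ones (the mirrored set, long in both knockdown libraries and in no control). Here they covered 4.25 and 3.62 kb in the controls, 1.24 kb under siRNA-1 and 1.08 kb under siRNA-2. On chromosome 12 (hg19, chr12:12600913-12604728) a region of 3696 and 3455 bp was enriched 21.8-fold and 25.1-fold. It had 14 other regions within 50 kb, of which 11 had no knockdown peak and 2 were called in all 4 libraries. Of those 11, 7 were called in both controls and so were lost as well. Those 14 covered 20.3 and 16.7 kb in the controls against 10.3 kb under siRNA-1 and 7.64 kb under siRNA-2. A second region on chromosome 1 (hg19, chr1:101467483-101471885) of 4395 and 4290 bp was enriched 31.5-fold and 28.8-fold, with the nearest peaks of siRNA-1 and siRNA-2 19.0 and 19.1 kb away. At each of these members the 2 controls were close in length and enrichment.

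**Figure D1:**
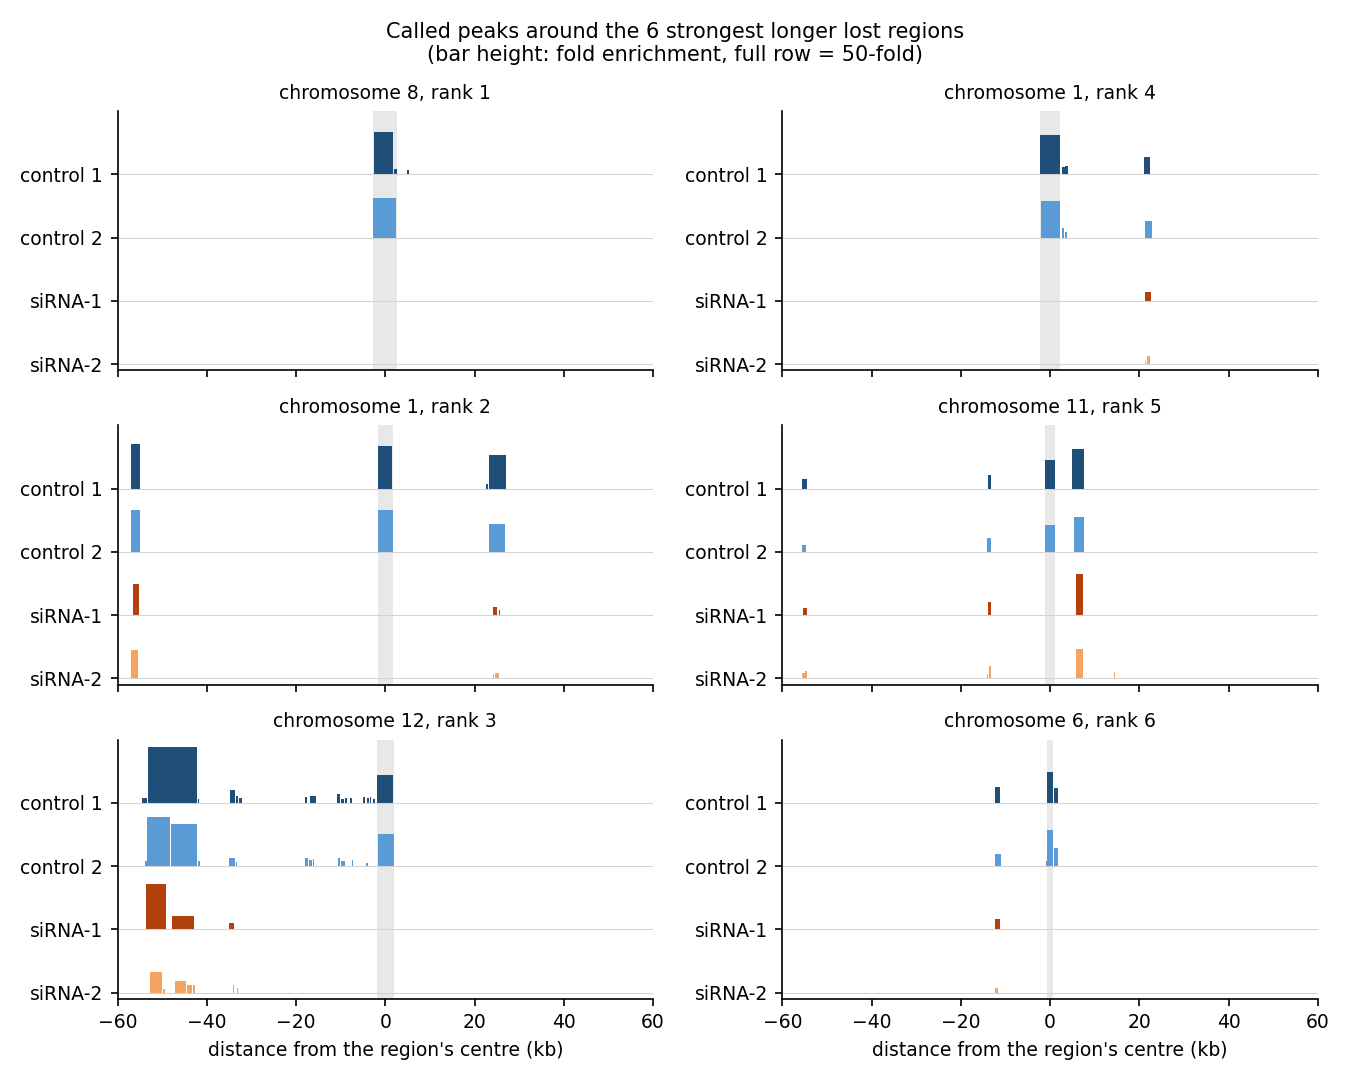
Called H3K27ac peaks in the 4 libraries around the 6 strongest longer lost regions, by distance from the region's centre (kb). Bar width is the called peak and bar height the authors' fold enrichment, with a full row standing for 50-fold; the grey band is the longer lost region, called in both controls and empty in both knockdown rows, and around the chromosome 12 region several further control peaks are also without a knockdown peak.

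Members ranked 5 to 12 were shorter or less enriched. The fifth, on chromosome 11 (hg19, chr11:72517292-72519679), was 2160 and 2388 bp long in the controls, and a region called in all 4 libraries lay only 3.77 kb away. The sixth, on chromosome 6 (hg19, chr6:13406772-13408165), was the shortest of the 12, with 1331 and 1361 bp, yet was enriched 24.6-fold and 28.5-fold. Regions on chromosome 20 (hg19, chr20:3292567-3295043), chromosome 19 (hg19, chr19:10145973-10149064) and chromosome 8 (hg19, chr8:91478656-91481137) lay 92.8, 67.9 and 66.7 kb from the nearest region called in all 4 libraries. A region on chromosome 7 (hg19, chr7:77107734-77112713) was 4940 and 4517 bp long, with the nearest siRNA-1 peak at 18.3 kb and the nearest siRNA-2 peak at 51.9 kb. The last of the 12, on chromosome 10 (hg19, chr10:96936866-96940687), went the other way from most in its surroundings: other regions within 50 kb covered 10.4 and 11.9 kb in the controls against 21.7 kb under siRNA-1 and 13.0 kb under siRNA-2.

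Several members fell inside genes whose place on the hg19 map is general knowledge; no distance to a gene was measured, and these genes were picked after the members were seen. The eleventh member by strength (hg19, chr7:81381510-81384479) lies in HGF, which encodes hepatocyte growth factor, the ligand of the MET receptor. It was 2733 bp long in control 1 and 2729 bp in control 2, with fold enrichments of 21.4 and 19.2. Of 10 other regions within 50 kb, 9 had no knockdown peak. Only 4 of those 9 were called in both controls, and 1 of the 9 was a further member at 25.8 kb. Called length of the rest was 6.89 and 4.05 kb in the controls, 1.42 kb under siRNA-1 and 0 with siRNA-2. The sixth longest member (hg19, chr16:68785573-68790860) lies in CDH1, the gene of E-cadherin, the main adhesion protein of epithelial cells. It was 5048 and 4000 bp long, with fold enrichments of 13.5 and 12.2, and a region called in all 4 libraries lay 3.30 kb from it. Around this member 6 of 12 other regions within 50 kb were called in all 4 libraries, and called length was 26.0 and 24.2 kb in the controls, 24.0 kb under siRNA-1 and 18.7 kb under siRNA-2. The acetylated surroundings were thus largely present after knockdown at the CDH1 member and largely absent from the lists at the HGF member.

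Most longer lost regions were of moderate length and moderate enrichment. Median merged width was 1934 bp (lowest 1043, quartiles 1573 and 2368, highest 5403), and median called length was 1776 bp in control 1 and 1539 bp in control 2. In 399 of 585 the called length was longer in control 1 (68.2%), which matched the longer kept regions, where it was longer in control 1 in 68.0%. Called length reached 2000 bp in both controls in 122 members (20.9%) and 3000 bp in 21 (3.59%), against 52.9% and 30.7% of longer kept regions. After the strongest member the longest by their lower length were on chromosome 11 (hg19, chr11:102507728-102512452; 4725 and 4583 bp), the chromosome 7 and second chromosome 1 regions given above, and chromosome 15 (hg19, chr15:91133380-91138508; 4779 and 4077 bp). The last of these was cut into 4 peaks in control 2 and was a single peak in control 1.

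**Figure D2:**
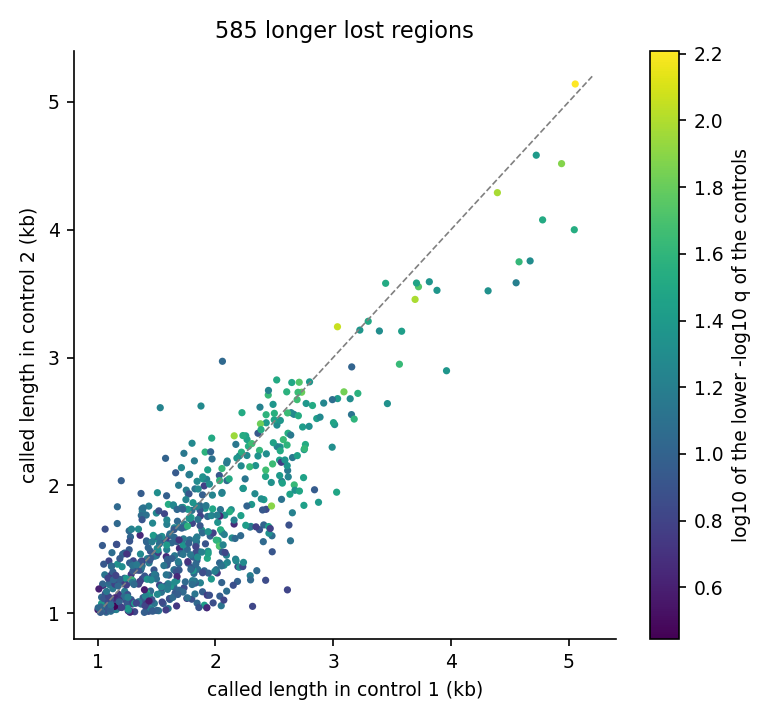
Called length of each of the 585 longer lost regions in control 1 (x axis, kb) and control 2 (y axis, kb), coloured by the log10 of its strength; the dashed line marks equal length. Most points lie between 1 and 3 kb and 68.2% lie below the line, and the region at the upper right is the strongest one, on chromosome 8.

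Enrichment in the controls was modest for most members. The median fold enrichment was 8.19 in control 1 (quartiles 6.20 and 10.8) and 7.37 in control 2 (quartiles 5.85 and 9.94), against medians of 16.8 and 15.4 in longer kept regions. By −log10 q the median member stood at percentile 59.2 of the control 1 list and 56.4 of the control 2 list, and the median longer kept region at 81.4 and 81.1. Both controls reached a −log10 q of 10 in 397 members (67.9%), of 20 in 168 (28.7%) and of 50 in 14 (2.39%). In longer kept regions these shares were 95.25%, 79.7% and 47.1%. Only 3 members were in the top 10% of both control lists, against 25.3% of the longer kept regions.

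The share of long control regions that were lost fell with length and with strength. It was 6.22% of those whose lower called length was 1000 to 1500 bp (309 of 4971), 4.38% at 1500 to 2000 bp, 2.68% at 2000 to 3000 bp and 0.710% at 3000 to 5000 bp (20 of 2819). Among 2059 regions of 5000 bp or more, 1 was lost. By strength it was 15.9% at a −log10 q of 5 to 10 (171 of 1075), 7.56% at 10 to 20, 2.80% at 20 to 50 and 0.321% at 50 to 100 (12 of 3742). A longer region more readily overlaps some peak of every list, so part of this fall is set by the definition. Classes of length and of strength were not crossed, so length and strength cannot be told apart here. Around the 1000 bp limit the values ran on: the members just inside it had lower lengths of 1003, 1005 and 1007 bp and the shorter lost regions just outside it 999, 999 and 997 bp.

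**Figure D3:**
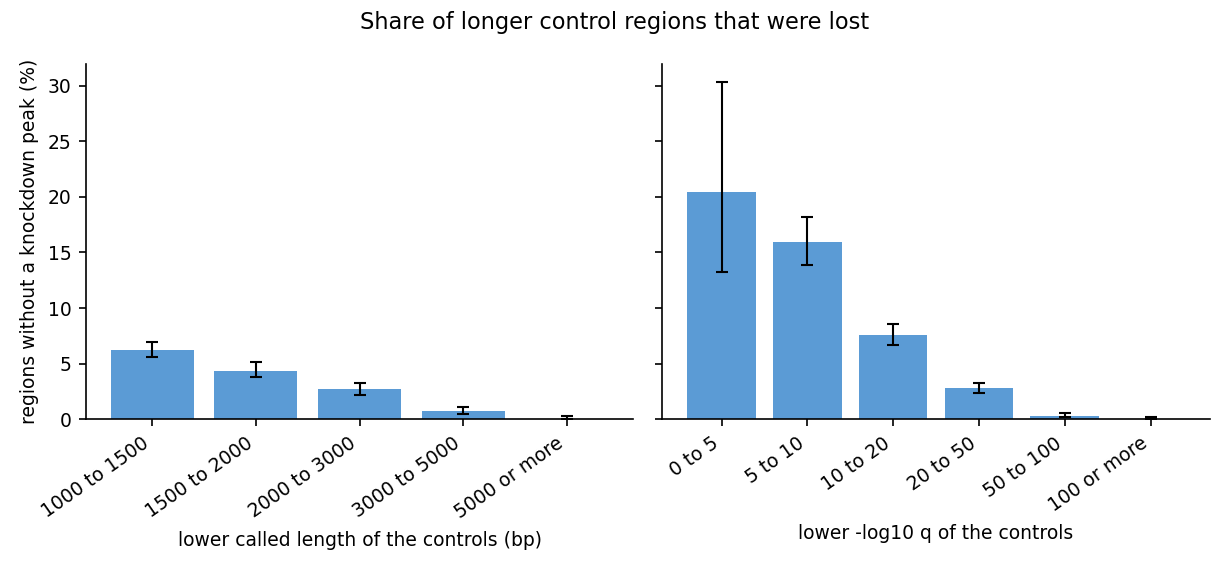
Percentage of regions with 1000 bp or more called in both controls that had no knockdown peak (y axis), by the lower called length of the controls in bp (left) and by the lower −log10 q (right). Bars are shares and error bars Wilson 95% intervals over regions; the share falls from 6.22% in the shortest class to 1 of 2059 in the longest, and from 20.5% (17 of 83) in the weakest class to 2 of 3696 in the strongest.

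Members were more broken up in the controls and their summits less sharply placed than those of longer kept regions. Exactly 1 peak in each control made up 261 of 585 members (44.6%) and 59.9% of longer kept regions. More peaks in control 2 than in control 1 were found in 200 members (34.2%) and the reverse in 97 (16.6%). Longer kept regions leaned the same way, with 21.5% and 9.84%. The best summits of the controls lay a median of 147 bp apart (quartiles 50 and 498 bp), against 70 bp in longer kept regions. They were within 200 bp in 345 members (59.0%) and 73.9% of longer kept regions. Within 1000 bp the shares were close, with 562 members (96.1%) and 96.8% of longer kept regions. Among the 12 strongest members the summits were no farther apart than the median of the set in 7. They were 59 bp apart in the strongest region, on chromosome 8, and 6 bp apart in the chromosome 6 region. In the chromosome 12 region, however, they were 713 bp apart and in the chromosome 10 region 893 bp. The control 1 summit lay in the middle 50% of the merged width in 447 members (76.4%), against 87.6% of longer kept regions. Members were weaker than longer kept regions, so strength and placement of summits cannot be told apart here, and no test was made of these differences.

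Longer lost regions were not short of neighbours as such, but stood farther from acetylated regions that were called in every library. Another region of any library lay a median of 2.74 kb from a member's edge and 2.53 kb from that of a longer kept region. To the nearest region shared by all 4 libraries the median distance was 20.9 kb (quartiles 6.22 and 56.3 kb), against 11.0 kb (3.08 and 33.2 kb) for longer kept regions. In 83 members (14.2%) no such region lay within 100 kb, as in 8.06% of longer kept regions. Longer gained regions, with 1000 bp or more in both knockdown libraries and no control peak, numbered 662 of 16113 (4.11%) and had a like median of 22.2 kb. The definition sets part of this, since a member near a knockdown peak that reached into it would have been merged with that peak.

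**Figure D4:**
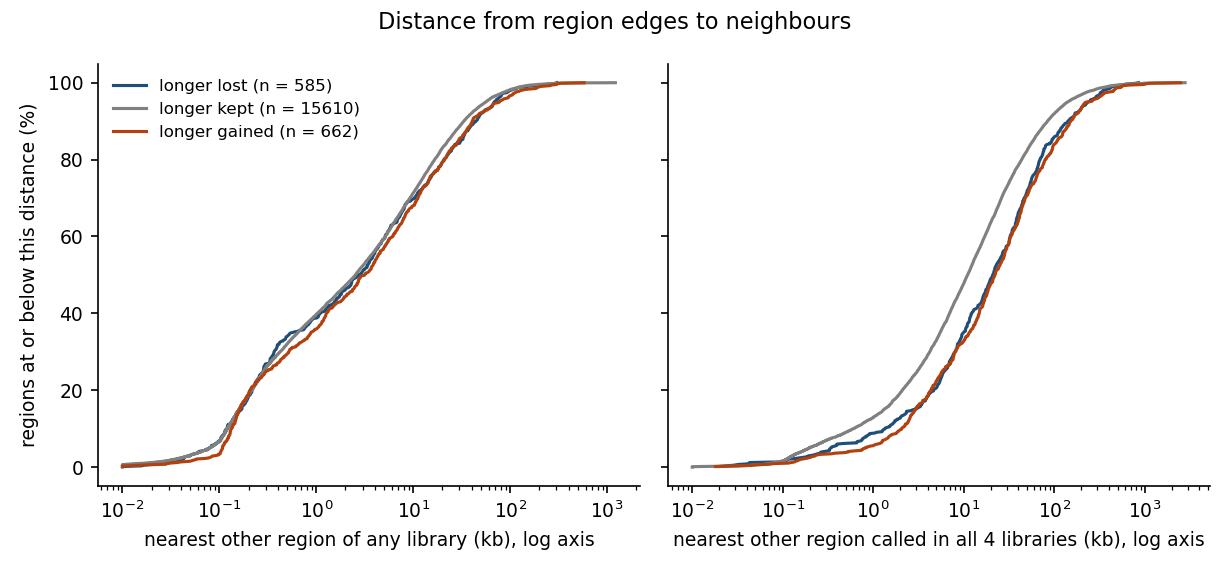
Cumulative percentage of regions (y axis) by distance from their edges, in kb on a log axis, to the nearest other region of any library (left) and to the nearest other region called in all 4 libraries (right), for longer lost (n = 585), longer kept (n = 15610) and longer gained (n = 662) regions. Curves on the left run close together, and on the right longer lost and longer gained regions lie to the right of longer kept ones, with medians of 20.9, 22.2 and 11.0 kb; distances under 0.01 kb are drawn at 0.01 kb.

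A peak of either siRNA lay within 1 kb of 46 members (7.86%), within 5 kb of 157 (26.8%) and within 50 kb of 478 (81.7%). Control peaks of other regions were found that near more members: 223 within 1 kb (38.1%), 341 within 5 kb and 531 within 50 kb. The rule sets part of this gap, because a knockdown peak that touches the region removes it from the set. In the mirrored set, 23 of 662 longer gained regions had a control peak within 1 kb (3.47%) and 165 within 5 kb (24.9%). The nearest siRNA-1 peak was a median of 17.5 kb from a member and the nearest siRNA-2 peak 14.3 kb. Gained regions of any length, called by both siRNAs and by no control, lay within 1 kb of 0 of 585 members, within 5 kb of 4 (0.684%) and within 50 kb of 50 (8.55%). For longer kept regions these shares were 1.95%, 5.02% and 22.9%.

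The 5 members farthest from any other region ranked from 202 to 504 of 585 by strength. The most isolated, on chromosome 18 (hg19, chr18:58044046-58046069), lay 302 kb from the nearest other region of any library. It was 1750 and 1889 bp long in the controls, with fold enrichments of 12.1 and 9.12. Members on chromosome 3 (hg19, chr3:46626618-46628455), chromosome 5 (hg19, chr5:143830276-143832226), chromosome 12 (hg19, chr12:94576458-94578391) and chromosome 2 (hg19, chr2:209883125-209884521) came next, at 291, 251, 227 and 207 kb. Lower called lengths of these 5 ran from 1104 to 1750 bp, and none of their fold enrichments passed 12.1.

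Other regions around the members also carried less called length after knockdown. This is a description: the same 4 libraries chose the members, merging removed neighbours whose knockdown peak reached a member, and 223 members had a control peak of another region within 1 kb. Other regions within 10 kb of a member, leaving out longer lost and longer gained regions, covered 1532 and 1384 kb in controls 1 and 2, against 897 kb under siRNA-1 and 892 kb under siRNA-2. Shares were taken of each list's called length outside longer lost and longer gained regions. This was 2.29% and 2.27% in the controls and 1.30% and 1.47% after knockdown, so both knockdown libraries lay below both controls. The mean was 2.28 ± 0.0192% in controls and 1.39 ± 0.123% after knockdown (SD, n = 2 each), a ratio of 0.608. Within 50 kb the knockdown minus control difference in this share was -1.88 percentage points, -2.11 between the libraries numbered 1 and -1.65 between those numbered 2. At 10 to 50 kb the ratio was 0.784, at 50 to 250 kb 0.912 and at 250 to 1000 kb 1.01. The fall thus faded with distance and at 250 to 1000 kb the knockdown shares were slightly above the control shares, at 25.1% and 24.9% against 24.8% in each control. Around longer gained regions the ratios were 1.74, 1.34, 1.09 and 0.988 over the same distances. In kb of called length, without dividing by the list, the groups also stood apart up to 50 kb around both sets, and they overlapped at 50 to 250 kb and at 250 to 1000 kb.

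**Figure D5:**
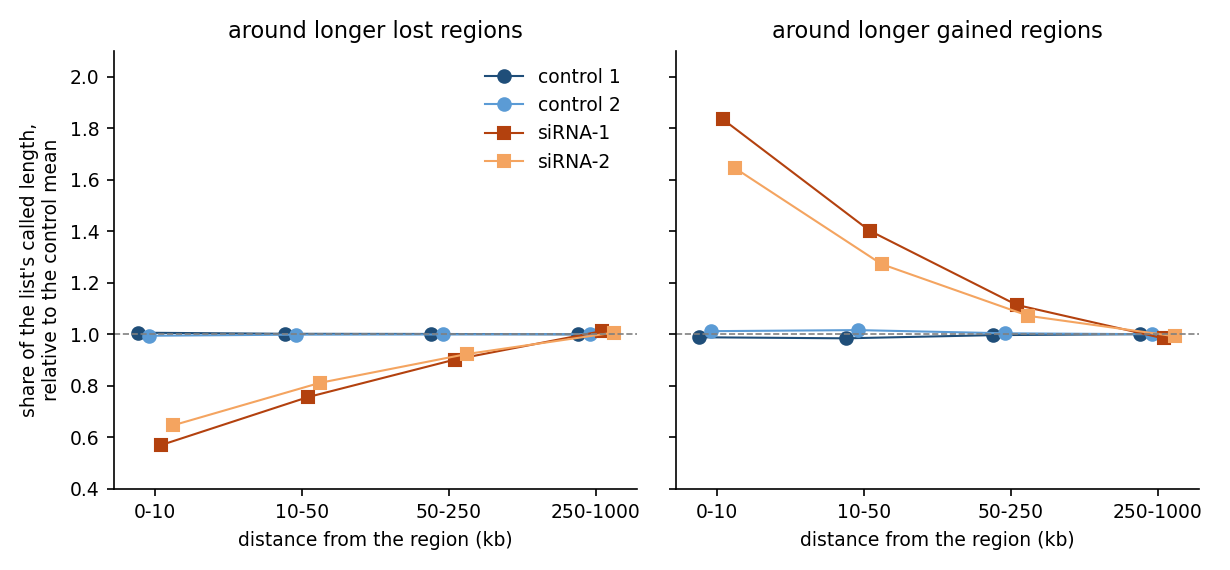
Share of each library's called length outside longer lost and longer gained regions that lay at 4 distances (kb) from longer lost regions (left) and longer gained regions (right), divided by the mean of the 2 controls. Each point is 1 library. Both knockdown libraries lie below the controls near longer lost regions (mean ratio 0.608 within 10 kb) and above them near longer gained regions (1.74), and all 4 meet near 1 at 250 to 1000 kb.

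The same held for the regions that stayed on all 4 lists. Of 271 regions called in every library within 10 kb of a member, 225 had less called length in the knockdown libraries together than in the controls together (83.0%, Wilson 95% interval 78.1 to 87.0%), against 48.4% of all 24133 regions called in every library. Within the libraries numbered 1 it was 81.2% of the 271, and within those numbered 2 it was 84.5%. Their median length after knockdown was 0.770 of that in the control in number 1 and 0.782 in number 2, where over all regions called in every library it was 1.01 in both. At 10 to 50 kb, 482 of 721 such regions were shorter (66.9%). Among neighbours at 1 to 10 kb only, 79.4% were shorter (173 of 218). These shares are still shaped by the rule, since a neighbour whose knockdown peak reached the member would have been merged with it. No test was made over these regions, which are not replicates of the knockdown and share the 4 libraries with the members.

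Surroundings differed from member to member. Of 535 members with other called regions within 50 kb, 356 (66.5%) had less called length there in both knockdown libraries than in both controls, and 52 (9.72%) had more in both. Of 14657 longer kept regions with neighbours, 30.2% had less and 27.7% had more by the same count. A shorter lost region made up 22.7% of the other regions within 10 kb of a member (210 of 927) and 6.10% of all regions other than members. Gained regions made up 0.863% of those within 10 kb (8 of 927) and 6.83% of all regions other than members. These sets are unlike, since the 927 leave out longer gained regions and the regions other than members include them. At 250 to 1000 kb from a member, with longer gained regions left out as well, gained regions made up 5.76% and shorter lost regions 5.95%.

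Members were spread over all 23 chromosomes examined, and some shared a 1 Mb bin. The most were on chromosome 2, with 66 of 1344 long control regions lost (4.91%, Wilson 95% interval 3.88 to 6.20%), and the highest share on chromosome 8, with 41 of 826 (4.96%, 3.68 to 6.66%). Chromosome X had the lowest share, 7 of 445 (1.57%, 0.764 to 3.21%). In all, 456 bins held a member, 99 of them 2 or more, 22 of them 3 or more and 2 of them 5. The 662 longer gained regions occupied 510 bins, of which 32 held 3 or more. Of the 456 bins with a longer lost region, 94 also held a longer gained one. That share was not taken for all bins with long control regions, so 94 cannot be called many or few. Within 50 kb of another member lay 82 members (14.0%). No matching count was made for long control regions, so these counts do not show more gathering than theirs.

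A bin on chromosome 5 (58000001 to 59000000) held 5 members, the most together with a bin on chromosome 8, out of 35 long control regions. It lies in the stretch that holds PDE4D, which encodes a phosphodiesterase that breaks down cyclic AMP. These members spread over 517 kb, and the strongest of them (hg19, chr5:58661123-58664834) was 3145 and 2678 bp long, with fold enrichments of 7.48 and 9.12. A further 24 lost regions of the bin were shorter and 29 regions were called in all 4 libraries. Leaving out the members, called length in the bin was 347 and 316 kb in the controls, against 218 kb under siRNA-1 and 234 kb under siRNA-2. Here 4 of the 5 members lay within 1 kb of a region called in all 4 libraries, whereas none of the members of the chromosome 8 and the other chromosome 5 bin described next did.

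The bin on chromosome 8 (27000001 to 28000000) had its 5 members, out of 24 long control regions, within 218 kb. Their fold enrichments were at most 11.1 in control 1 and 7.45 in control 2, and the longest by its lower length (hg19, chr8:27929461-27931023) was 1563 and 1373 bp long. The bin also held 9 shorter lost, 18 kept and 2 gained regions. Outside the members its called length was 80.6 and 66.0 kb in the controls, 43.7 kb under siRNA-1 and 41.8 kb under siRNA-2. On chromosome 5 (95000001 to 96000000) a bin with 4 members out of 24 long control regions had 12 shorter lost, 20 kept and 0 gained regions. Outside the members, 68.1 and 63.1 kb were called there in the controls, 28.7 kb under siRNA-1 and 40.8 kb under siRNA-2. Its strongest member (hg19, chr5:95452685-95455136) was 2183 and 2213 bp long and was enriched 8.64-fold and 10.4-fold. In all 3 bins both knockdown libraries had less called length than both controls, also outside the members. The last of the 3 was picked among bins with 4 members by its shorter lost regions, which favours such a fall. Of the bins tied with it, those on chromosomes 20 and 7 also had less in both knockdown libraries. The one on chromosome 2 (44000001 to 45000000) did not. Outside its members 36.1 and 33.6 kb were called in the controls, 45.6 kb under siRNA-1 and 29.4 kb under siRNA-2.

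Further groups of 3 members, on chromosomes 2, 15, 9 and 8, were picked after their values were seen. In the bins on chromosomes 2, 15 and 9 both knockdown libraries had less called length outside the members than both controls, and in the one on chromosome 8 both had more. Of the 22 bins with 3 or more members, this chromosome 8 bin was the only bin where both had more. In bins on chromosomes 1, 2, 14 and 20 (starting at 168000001, 44000001, 35000001 and 3000001) the groups overlapped, and in the rest both had less. On chromosome 2, 3 members lay within 52.3 kb (hg19, from 211391061 to 211443344), inside CPS1, which encodes a mitochondrial enzyme of the urea cycle. The first of them was 2452 bp long in control 1 and 1678 bp in control 2, with fold enrichments of 13.1 and 11.3. Outside the members its bin had 43.7 and 37.7 kb called in the controls, 14.4 kb under siRNA-1 and 23.5 kb under siRNA-2. On chromosome 15, 3 members lay inside THSD4 (hg19, from 71575380 to 71808975), a gene of a matrix protein, with fold enrichments of at most 7.34. Their bin had 13 shorter lost and 7 gained regions, and 113 and 108 kb were called outside the members in the controls, against 86.7 kb under siRNA-1 and 96.1 kb under siRNA-2. On chromosome 9, 3 members lay within 21.5 kb (hg19, from 113297977 to 113319521), and the last of these was 4316 and 3522 bp long. Outside these members 60.2 and 55.2 kb of the bin were called in the controls, 45.9 kb under siRNA-1 and 43.0 kb under siRNA-2.

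The NRG1 gene encodes neuregulin 1, a ligand of ERBB receptors. It held members although called length in the rest of their 1 Mb bin was higher after knockdown. On chromosome 8, 3 members lay within 23.2 kb of each other inside NRG1 (hg19, from 32282946 to 32306163). The longest was 3298 bp in control 1 and 3284 bp in control 2, with fold enrichments of 11.7 in each. The nearest peak of each siRNA was 66.6 kb from it and 73.6 kb or more from the other members here. No knockdown peak thus lay within 50 kb of any of them. Outside the members, however, the bin had 82.8 and 82.2 kb called in the controls, against 121 kb under siRNA-1 and 107 kb under siRNA-2, and it held 9 gained and 2 shorter lost regions. Loss of these long regions and longer calls elsewhere in the same bin were thus found side by side.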

How the data were processed

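H3K27ac was measured by chromatin immunoprecipitation and sequencing, with single-end reads of 101 bases per the labels' protocols. The submitters' processing notes name MACS2 2.2.7.1, BWA 0.7.17 and SAMtools 1.7.0, with build hg19, but no options and no use of the inputs. The deposited lists, 1 per library and not pooled, give each peak's position, summit, fold enrichment (a linear ratio), −log10 p, −log10 q and a score, which are the authors' values and depend on unknown depth. The score and −log10 p entered no result. Scripts (Python 3.11.15, pandas 2.3.3, SciPy 1.17.1) merged peaks, summed called length and measured distances between region edges. On simulated lists of 48629 regions, 197 of 200 planted longer lost regions were recovered. This checks the code only, because planted regions were taken out of both knockdown lists. All other regions of 1000 bp or more were kept in every simulated list, unlike in the real lists.

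The members and lists were chosen with earlier results of these data known. Members named are the 12 strongest, the 5 longest, the 5 most isolated and those of the 3 fullest 1 Mb bins (ties by shorter lost regions); others are said to be picked later. Gene distances, gene lists, promoters and sequence motifs planned for these regions were not analysed here, since no hg19 genome or gene table was used. No test was made over regions or libraries, since the libraries chose the members; the smallest exact permutation p for 2 libraries a group is 0.333. Intervals are Wilson 95%.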

Additional observations from a re-analysis of the deposited data

How the results depend on the processing

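No paired analysis was possible because the results come from no test; within-number values stand beside them in the text. The number of longer lost regions was 585, and 1704 and 122 with 500 and 2000 bp required, 1154 with peaks of a −log10 q of 10 or more in every list and 1970 when a knockdown library had to cover 50% of a control region. Merging within 1000 bp (737) and a −log10 q of 5 or more (830) stayed within 1.5 times. So did 2 alternatives chosen after seeing the data, no knockdown peak within 1000 bp (539) and equal called length (762). Without each library in turn it ranged from 623 to 1101 (891 without control 2, 995 without siRNA-1, 1101 without siRNA-2), since fewer calls or absences are then required. The percentage lost was 6.98 and 1.41 at 500 and 2000 bp, 4.99 and 7.56 at a −log10 q of 5 and 10, and 3.50 to 6.44 without each library. Median width was 2111 bp at a −log10 q of 10, and 1364 to 1965 bp without each library. Median distance to the nearest region called in every library used was 12.7 to 16.6 kb without each library. Bins with 3 or more members numbered 175 and 2 at 500 and 2000 bp, 83 at a −log10 q of 10, 13 with bins of 0.5 Mb and 37 to 78 without each library (37 without control 1, 59 without control 2, 57 without siRNA-1, 78 without siRNA-2), where the number of members also rose. The alternatives for the surroundings were chosen after seeing the data. The share of neighbours shorter after knockdown was 66.9% at 10 to 50 kb and 78.6 to 87.5% without each library. For called length outside longer lost and longer gained regions, the knockdown minus control share was -1.88 percentage points within 50 kb. It was -0.894 within 10 kb, -1.07 at 50 to 250 kb and -1.67 to -2.09 without each library. The cause of these changes was not tested. Shares by distance from gene starts and by a C/EBP motif were not run. Depth is unknown, so a missing call may be a weaker signal.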
